A study of Mus musculus with 12 samples.

Results

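The elastic fibre genes described here are 10 genes chosen by name: Eln, Fbn1, Mfap2, Mfap4, Mfap5, Fbln1, Fbln2, Fbln5, Emilin1 and Ltbp4. They are 10 of the 31722 gene symbols in a table of whole-heart messenger RNA, and all 10 were at 0.627 RPKM or more in every heart (RPKM is reads per kilobase of gene, scaled to the size of the library). The table holds 12 hearts of C57BL/6J mice, 1 library per heart: 6 of the Control group and 6 of mice given carbon tetrachloride, called CCL4 in the labels and here, a chlorinated solvent that injures hepatocytes and, given repeatedly, scars the liver. The question behind the comparison is how a cirrhotic liver acts on the heart, and the labels give no dose, age, sex or time of collection and no measure of the liver. Each library is a piece of heart with all its cell types, so more cells of a type and more RNA per cell cannot be told apart.

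Elastic fibres let a tissue stretch and spring back. Their core is elastin, secreted as soluble tropoelastin, and it is laid down on a scaffold of microfibrils built from fibrillin-1 (Fbn1) and its associated glycoproteins. Fibulins, emilin-1 and the latent TGF-beta binding protein 4 lie between the cell, the microfibril and the elastin, and lysyl oxidases then crosslink the fibre. In the heart such fibres run in the walls of the coronary vessels, the valves and the lining layers, and microfibrils also hold TGF-beta in latent form.

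Several libraries stood apart before any comparison. CCL4 replicate 3 had the highest value of the 12 hearts in 41.4% of the 14087 genes tested, and CCL4 replicate 2 the lowest in 44.5%. Relative depth ran from 26346851 to 57726286 steps in Control and from 39641875 to 63361994 steps in CCL4 libraries, where a step is the smallest amount by which a value can change. The atrial myosin light chain Myl7 was at 419 RPKM in Control replicate 1 and 307 RPKM in CCL4 replicate 4. In the other hearts of those groups it was at 9.47 to 181 and 0.811 to 28.7 RPKM. Only these 2 highest libraries are called Myl7-rich below. Control replicates 2, 3 and 5, at 141 to 181 RPKM, were also far above Control replicates 4 and 6 at 9.47 and 14.6 RPKM. Replicates 2 and 5 of both groups carried the Y-linked gene Ddx3y at 6.18 to 7.79 RPKM and almost no Xist (up to 0.126 RPKM), while the other 4 hearts of each group had Xist above 5 RPKM. Heart muscle markers were present in all 12 hearts, with a summed level of 6 genes of 25228 to 31580 RPKM in Control and 17968 to 27707 RPKM in CCL4.

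In Control hearts the 10 genes spanned a little over 1 order of magnitude on the RPKM scale, which is per length. Ltbp4 was the most abundant at 13.6 ± 1.53 RPKM (SD, n = 6), higher than 86.1% of the genes tested. Below it came Mfap4 (8.08 ± 5.47 RPKM), Fbln2 (7.64 ± 1.86), Eln (7.58 ± 2.19), Emilin1 (5.45 ± 0.505), Fbn1 (5.17 ± 1.01), Fbln1 (5.01 ± 2.42) and Mfap5 (3.08 ± 0.966). Fbln5 (1.5 ± 0.552 RPKM) and Mfap2 (1.24 ± 0.519 RPKM) were the least abundant. Between neighbours in this order the gap was larger than the larger of their SDs only from Ltbp4 to Mfap4 and from Mfap5 to Fbln5. Ltbp4 was above Mfap4 in 5 of 6 Control hearts but in 3 of 6 CCL4 hearts, where Mfap4 led the order at 21.9 ± 21.7 RPKM.

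All 10 genes had a higher mean in CCL4 than in Control hearts, and none passed the test. Measured as log2(RPKM + 1), which understates changes of low genes, the log2 fold changes from Control to CCL4 ran from 0.10 to 0.97 with a median of 0.40. Across all genes tested 34.3% lay higher and the median was -0.05, and a fold change of at least 0.3 upwards was met by 8 of the 10 and by 3.85% of all genes. The limma test, adjusted with Benjamini-Hochberg over 14087 genes, called 0 of the 10 (smallest adjusted p = 0.515) and 0% of all genes (smallest adjusted p = 0.0731). At an unadjusted p under 0.05 it held 0 of the 10, against 1.6% of all genes on the higher side and 8.58% on the lower side, and the exact permutation test of single genes gave 0.13 to 0.742 for the 10. In none of the 10 were the groups without overlap, which held for 0.0355% of all genes upwards and 0.724% downwards. Without CCL4 replicate 3 the median fell to 0.14 and Eln (-0.21) and Ltbp4 (-0.044) lay lower in CCL4 hearts.

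**Figure D1:**
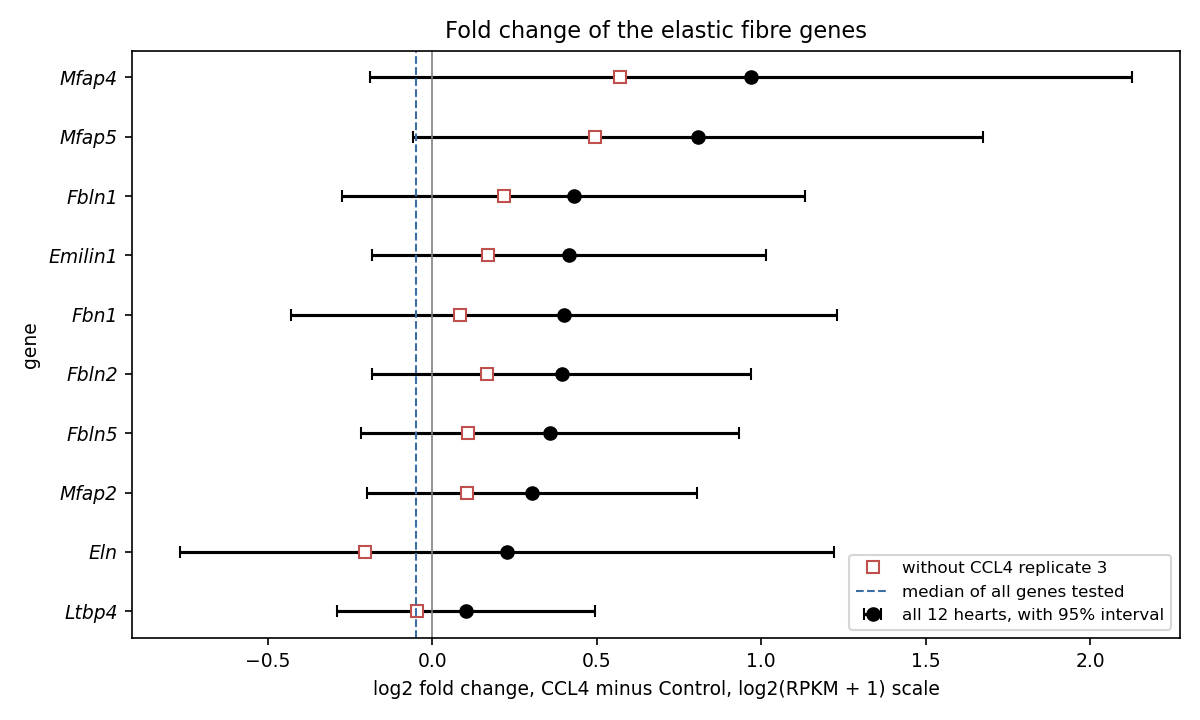
Log2 fold change of each elastic fibre gene (x axis, the CCL4 mean less the Control mean of log2(RPKM + 1)) with its 95% interval from the limma fit; open squares are the values without CCL4 replicate 3. All 10 intervals span 0, and Eln and Ltbp4 move to the lower side when that library is left out.

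What the genes shared was an uneven CCL4 group. CCL4 replicate 3 was the highest of the 12 hearts in 10 of 10 genes, and over the Control median the median fold of the 10 was 4.0 in that heart. In CCL4 replicates 6 and 5 it was 1.87 and 1.61, and all 10 genes lay above the Control median in each of these 3 hearts (69.0%, 60.3% and 44.9% of all genes in replicates 3, 6 and 5). CCL4 replicate 4 was mixed at 1.16, with 7 genes above the Control median (42.8% of all genes) and 3 (Eln, Fbn1 and Ltbp4) below it. CCL4 replicates 1 and 2 were at 0.720 and 0.760, with 0 of the 10 genes above the Control median, where 13.0% and 12.1% of all genes lay above it. Median of ratios scaling, chosen after seeing the data, put 2 and 5 of the 10 above it in these hearts (49.996% and 50.6% of all genes), while in replicates 3, 6 and 5 all 10 still did. The order of replicate 3 over 6 over 5 over the others held in 8 of 10 genes and in 20.9% of all genes tested, and Fbln1 and Fbln5 were the exceptions, where replicate 4 came before replicate 5.

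How much of this is particular to the 10 genes can be read against all genes. Above every Control heart lay 10 of the 10 genes in CCL4 replicate 3 (45.1% of all genes), 8 in replicate 6 (22.9%) and 4 in replicate 5 (12.1%). Below every Control heart lay 7 of the 10 in replicate 1 (47.0% of all genes) and 7 in replicate 2 (60.6%), so the low values in those 2 hearts were shared by much of the table. Mitochondrial genes took 45.6% and 45.0% of the summed RPKM there, against 36.2% to 42.6% in the other 10 hearts, and the part of this in the low values was not tested. When the libraries were scaled by the median of ratios, a choice made after seeing the data, only 1 and 2 of the 10 genes lay below every Control heart there. In replicate 4, 2 of the 10 (Eln and Fbn1) lay below every Control heart in RPKM (24.3% of all genes) and 0 with that scaling. With the same scaling 10, 8 and 6 genes lay above every Control heart in replicates 3, 6 and 5, against 26.2%, 16.7% and 15.1% of all genes.

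**Figure D2:**
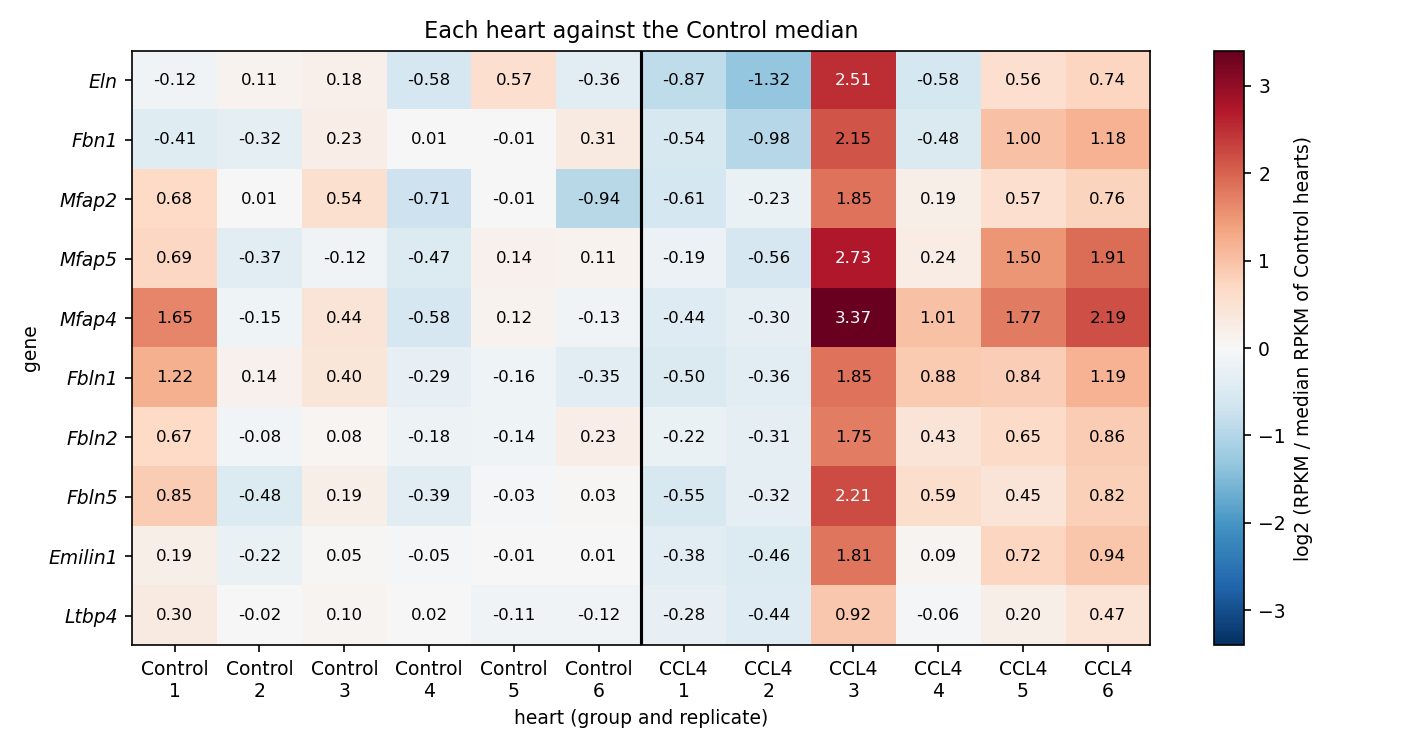
Log2 ratio of each RPKM value to the median of the Control hearts, genes in rows and the 12 hearts in columns. CCL4 replicates 3, 5 and 6 are above 0 in every row, CCL4 replicates 1 and 2 below 0 in every row, and Control replicate 1 is high in the fibulins and Mfap4 but below 0 in Eln and Fbn1.

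The spread within the CCL4 group was wider than within the Control group in all 10 genes. The ratio of the SDs of log2(RPKM + 1), CCL4 over Control, had a median of 2.84 over the 10 genes and ran from 1.56 (Fbln1) to 6.83 (Emilin1). Over all genes tested 75.7% had a larger SD in CCL4 and the median ratio was 1.49. Without CCL4 replicate 3 the SD of the RPKM values of Mfap2 was 0.514 in CCL4 and 0.519 in Control hearts, so no wider. In each of the other genes it was still wider, though by little in Fbln5 (0.647 against 0.552) and Fbln1 (2.91 against 2.42).

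Elastin, the core of the fibre, had close group medians and a wide range among CCL4 hearts. Eln (chromosome 5, 134702593 to 134747323, minus strand, GRCm38) ran from 5.02 to 11.1 RPKM in Control hearts, with a median of 7.49 (CCL4 median 8.03). In CCL4 hearts it was at 42.8 RPKM in replicate 3, 12.5 in replicate 6, 11.1 in replicate 5, 4.99 in replicate 4, 4.11 in replicate 1 and 3.0 in replicate 2. Replicate 5 thus lay just under the highest Control heart, only replicates 3 and 6 were above all Control hearts, and the other 3 were below all of them. Replicate 4 was only just below, at 4.99 against 5.02 RPKM, and with median of ratios scaling it was within the Control range. The means were 7.58 ± 2.19 and 13.1 ± 15.1 RPKM (log2 fold change 0.23, SE 0.46, limma adjusted p = 0.907). Without CCL4 replicate 3 the CCL4 mean was 7.13 ± 4.33 RPKM (n = 5), below that of Control. The antisense gene model Gm30003 overlaps Eln and is not among the symbols of the table.

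Fibrillin-1 is the backbone of the microfibril, and in RPKM its gene split the CCL4 hearts into 3 high and 3 low. Fbn1 (chromosome 2, 125300594 to 125507993, minus strand) ran from 3.91 to 6.45 RPKM in Control hearts with a median of 5.20. CCL4 replicates 3, 6 and 5 were at 23.0, 11.7 and 10.4 RPKM, above all Control hearts, and replicates 4, 1 and 2 at 3.72, 3.58 and 2.64 RPKM, below all of them. In RPKM no CCL4 heart lay within the Control range. This depends on the scaling of the libraries. With the median of ratios 0 of the 10 genes lay above or below every Control heart in CCL4 replicate 4, so Fbn1 was within the Control range there. With that scaling Fbn1 was also within the Control range in replicate 1, and only replicate 2 stayed below it. The fold change of 0.40 (SE 0.39) had an adjusted p of 0.768 in limma, and was 0.09 without CCL4 replicate 3. Gm9913, a gene model on the other strand at 0.607 RPKM on average, overlaps the start of Fbn1, and with the strand setting of the counting not given their shared reads are uncertain.

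The microfibril-associated glycoproteins Mfap2 and Mfap5, which bind fibrillin, are a related pair with different levels. Mfap5 (chromosome 6, 122505845 to 122529290, plus strand) ran from 2.14 to 4.81 RPKM in Control hearts with a median of 2.97. It reached 19.7, 11.2 and 8.39 RPKM in CCL4 replicates 3, 6 and 5 and was at 3.52, 2.61 and 2.02 RPKM in replicates 4, 1 and 2. Its log2 fold change was 0.81 (SE 0.40, limma adjusted p = 0.515), the smallest p of the 10 genes. Mfap2 (chromosome 4, 141010418 to 141015984, plus strand) spanned 0.627 to 1.92 RPKM among Control hearts and 0.788 to 4.34 RPKM among CCL4 hearts, with medians of 1.20 and 1.57. The 3 highest CCL4 values of Mfap2 (4.34, 2.03 and 1.78 RPKM) lay closer to the highest Control value than those of Mfap5 did, and its fold change was 0.30 (SE 0.23). Mfap2 rests on few reads, 20 steps in the lowest library and 253 in the highest, against 254 to 3397 steps for Mfap5.

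Mfap4, a fibrinogen-related protein that binds both elastin and fibrillin, had the largest fold change of the 10 genes and also the widest Control spread. Mfap4 (chromosome 11, 61485431 to 61488900, plus strand) ran from 4.02 to 18.9 RPKM in Control hearts with a median of 6.01. In CCL4 hearts it was at 62.2 RPKM in replicate 3, 27.5 in replicate 6, 20.6 in replicate 5, 12.1 in replicate 4, 4.88 in replicate 2 and 4.42 in replicate 1. The highest Control value belonged to replicate 1, the heart richest in Myl7, and the next Control heart was at 8.13 RPKM. The fold change was 0.97 (SE 0.54, limma adjusted p = 0.56) and became 0.57 once CCL4 replicate 3 was dropped. When the fit held a score of 4 atrial markers, it was 1.19 (limma adjusted p = 0.453). The score is the mean of Myl7, Myl4, Sln and Nppa, of which Nppa alone lay higher in CCL4 hearts. Its last bases overlap Mapk7 on the other strand, which was at 1.69 RPKM on average.

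**Figure D3:**
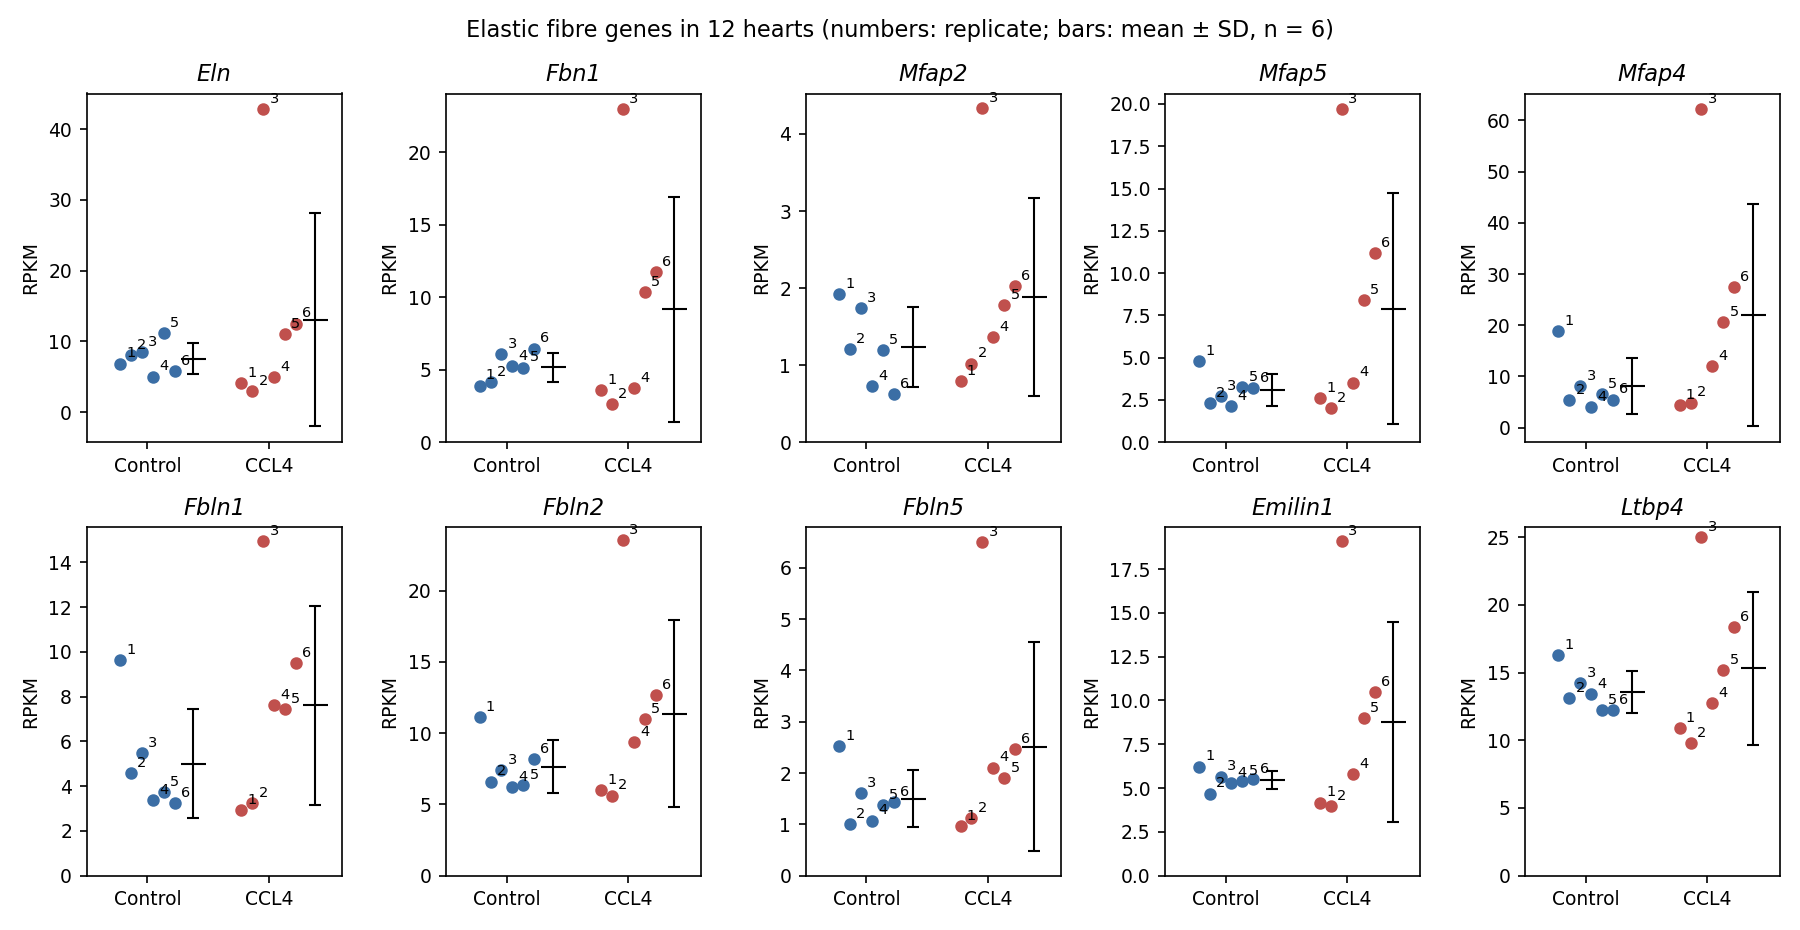
RPKM of each elastic fibre gene (y axis, 1 panel per gene, each with its own scale) in the Control (blue) and CCL4 (red) hearts; digits are replicate numbers and bars the mean ± SD of 6 hearts. CCL4 replicate 3 is the highest point in all 10 panels, and Control replicate 1 is the highest Control point in 8 of them.

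The fibulins are secreted glycoproteins that bridge elastin, microfibrils and basement membranes, and Fbln5 is needed for elastic fibres to form. Fbln1 (chromosome 15, 85205949 to 85286535, plus strand) ran from 3.25 to 9.64 RPKM among Control hearts and from 2.93 to 15.0 RPKM among CCL4 hearts, with medians of 4.15 and 7.53. Fbln2 (chromosome 6, 91212455 to 91272540, plus strand) ran from 6.19 to 11.1 RPKM and from 5.63 to 23.5 RPKM, with medians of 6.99 and 10.2. Fbln5 (chromosome 12, 101746565 to 101819055, minus strand) ran from 1.01 to 2.53 RPKM and from 0.958 to 6.49 RPKM, with medians of 1.40 and 2.01. In all 3 the group ranges overlapped, and the highest Control heart was replicate 1. Their fold changes were 0.43 (SE 0.33), 0.39 (SE 0.27) and 0.36 (SE 0.27), with limma adjusted p of 0.688, 0.648 and 0.679. Only CCL4 replicate 3 exceeded every Control heart in Fbln1 and Fbln5, and replicates 3 and 6 did in Fbln2.

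Promoter sequence was at hand for 7 of the 10 genes, in 12 start sites from RefSeq on GRCm38.p6; Eln, Mfap4 and Mfap5 had none. The 250 bases before each start were searched on both strands for GGGCGG (the GC box), TATAAA (the TATA box), TGACTCA (the AP-1 site) and the palindrome GTCTAGAC (a SMAD site). A GC box stood in 8 of the 12 windows, belonging to 6 of the 7 genes, and in 32.7% of all 32851 promoters. None of the 12 held the TATA, AP-1 or SMAD letters, which 12.4%, 4.46% and 0.167% of all promoters hold. Windows of 1 gene can overlap, and their GC content of 46.4% to 79.2% (median of all promoters 52.4%) moves with the number of GC boxes. The windows of Fbln5 and Fbln1 are shown because they belong to a related pair and are the only windows that lie wholly outside annotated genes. The first is Fbln5 at chr12:101819120-101819369 (minus strand) with 2 GC boxes, in capitals, read on the opposite strand and beginning 221 and 48 bases before the start, and the second is Fbln1 at chr15:85205699-85205948 (plus strand) with none; the window of another Fbln1 start site, not shown, has a GC box 11 bases before its start.
Fbln5: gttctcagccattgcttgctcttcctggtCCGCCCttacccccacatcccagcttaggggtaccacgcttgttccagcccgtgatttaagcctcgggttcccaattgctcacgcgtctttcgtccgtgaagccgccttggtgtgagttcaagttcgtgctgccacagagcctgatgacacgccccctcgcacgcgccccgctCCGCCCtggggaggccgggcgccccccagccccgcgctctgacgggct
Fbln1: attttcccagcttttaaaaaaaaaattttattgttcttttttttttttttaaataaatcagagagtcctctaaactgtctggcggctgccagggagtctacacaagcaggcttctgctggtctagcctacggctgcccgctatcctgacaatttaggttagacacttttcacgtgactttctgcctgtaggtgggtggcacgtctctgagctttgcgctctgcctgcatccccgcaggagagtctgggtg
A match is a description of letters, and no binding was measured in these hearts.

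Emilin1 and Ltbp4, which lie where elastin meets the microfibril and which both act on TGF-beta, were the steadiest genes in Control hearts. Emilin1 (chromosome 5, 30913402 to 30921277, plus strand) ran only from 4.68 to 6.23 RPKM there, with a median of 5.45. CCL4 replicates 3, 6 and 5 were above that range at 19.1, 10.5 and 9.0 RPKM, replicate 4 within it at 5.78 RPKM, and replicates 1 and 2 below it at 4.17 and 3.97 RPKM. With median of ratios scaling, replicates 1 and 2 were within the Control range of Emilin1. The fold change was 0.42 (SE 0.28, limma adjusted p = 0.641). Ltbp4 (chromosome 7, 27305136 to 27337692, minus strand) ran from 12.2 to 16.3 RPKM among Control hearts and from 9.78 to 25.0 RPKM among CCL4 hearts, with medians of 13.2 and 13.9. Its fold change of 0.10 (SE 0.18, 95% interval -0.29 to 0.49, adjusted p = 0.886) was the smallest of the 10, and even CCL4 replicate 3 was at 1.84 times the Control mean.

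Control replicate 1 divided the 10 genes. It was the highest Control heart in 8 of them (28.8% of all genes tested), at 2.34 times the Control mean in Mfap4, 1.92 times in Fbln1 and 1.69 times in Fbln5. In Fbn1 it was the lowest Control heart, at 0.756 times the mean, and in Eln it was at 0.907 times. CCL4 replicate 4, the other Myl7-rich heart, showed a partly like division. Fbln1, Mfap4 and Fbln5 were at 1.52, 1.49 and 1.40 times the Control mean there, and Eln and Fbn1 at 0.659 and 0.720 times. Mfap2, Mfap5, Fbln2 and Emilin1 were above the Control mean in both hearts, at 1.06 to 1.23 times in CCL4 replicate 4. Ltbp4 differed, at 1.20 times in Control replicate 1 and 0.937 times in CCL4 replicate 4. Among Control hearts, replicates 4 and 6 had the least Myl7 (9.47 and 14.6 RPKM) and also the least Eln (5.02 and 5.82 RPKM). The part of atrial tissue in these values was not tested. Both Myl7-rich libraries were then left out, a choice made after seeing the data. All 10 genes lay higher in the remaining CCL4 hearts with a median of 0.51, and none passed. Myl7 still ran from 9.47 to 181 RPKM in Control and from 0.811 to 28.7 RPKM in CCL4 hearts, so the groups were not made alike in Myl7.

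To compare genes within a heart, free of library scaling, the ratio of Eln to Fbn1 and of each to the fibrillar collagen Col3a1 was taken, 3 ratios in all. Eln was lower relative to Col3a1 in CCL4 hearts: its RPKM was 0.275 of that of Col3a1 in Control and 0.151 in CCL4 hearts (geometric means). The log2 ratio was -1.86 ± 0.543 and -2.73 ± 0.467 (SD, n = 6 each), a difference of -0.87 (two-sided exact permutation test over every split of the 12 hearts into 6 and 6, p = 0.0152, adjusted over the 3 ratios p = 0.0455). All 6 CCL4 hearts lay below the Control median and 4 of 6 below every Control heart. Col3a1 itself was at 27.8 ± 9.45 and 81.7 ± 73.3 RPKM (limma adjusted p = 0.507), so the ratio differed in hearts in which neither gene passed on its own. The log2 fold change of Col3a1 was 1.05, against 0.23 for Eln and a median of -0.05 over all genes tested. Besides Eln only Fbn1 was set against Col3a1, so a lower ratio is not shown to be particular to Eln. The ratios were chosen with earlier results of these data known.

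This difference was sensitive to the scale and to which hearts were used. With a pseudocount of 1 on all 12 hearts it was -0.83 and missed the threshold (adjusted exact p = 0.0714). It stayed past the threshold without Control replicate 1, CCL4 replicate 1 or CCL4 replicate 3. It also did so with both Myl7-rich libraries left out (adjusted p = 0.0476, exact permutation test), which does not make the groups alike in Myl7. Leaving out any of the other 9 libraries, Control replicates 2 to 6 or CCL4 replicates 2, 4, 5 and 6, gave adjusted exact p between 0.0649 and 0.11, with differences of -0.91 to -0.73. In the 4 hearts of each group with Xist, a choice made after seeing the data, the difference was -0.46 (exact permutation p = 0.2, adjusted p = 0.471). With so few hearts a single ratio can hardly pass after adjustment, so only the size of the difference is informative there. The highest Control ratios, 0.438 and 0.392, were in replicates 5 and 2, the hearts with Ddx3y, where the CCL4 hearts of the same numbers were at 0.123 and 0.136.

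Fbn1 relative to Col3a1 showed a similar size of difference without passing. The log2 ratio was -2.39 ± 0.603 in Control and -3.04 ± 0.430 in CCL4 hearts (difference -0.66, exact permutation p = 0.0649, adjusted p = 0.0974). Control replicate 1 was the lowest of all 12 hearts at a ratio of 0.0873, and without it the difference was -0.88 (adjusted exact p = 0.0162). Without CCL4 replicate 1, the highest CCL4 heart at 0.217, it was -0.82 (adjusted exact p = 0.0292). Eln relative to Fbn1 did not differ beyond the spread: 0.53 ± 0.533 and 0.32 ± 0.309 (difference -0.21, exact permutation p = 0.411). Control hearts spanned ratios of 0.902 to 2.16, a range that held all 6 CCL4 hearts.

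**Figure D4:**
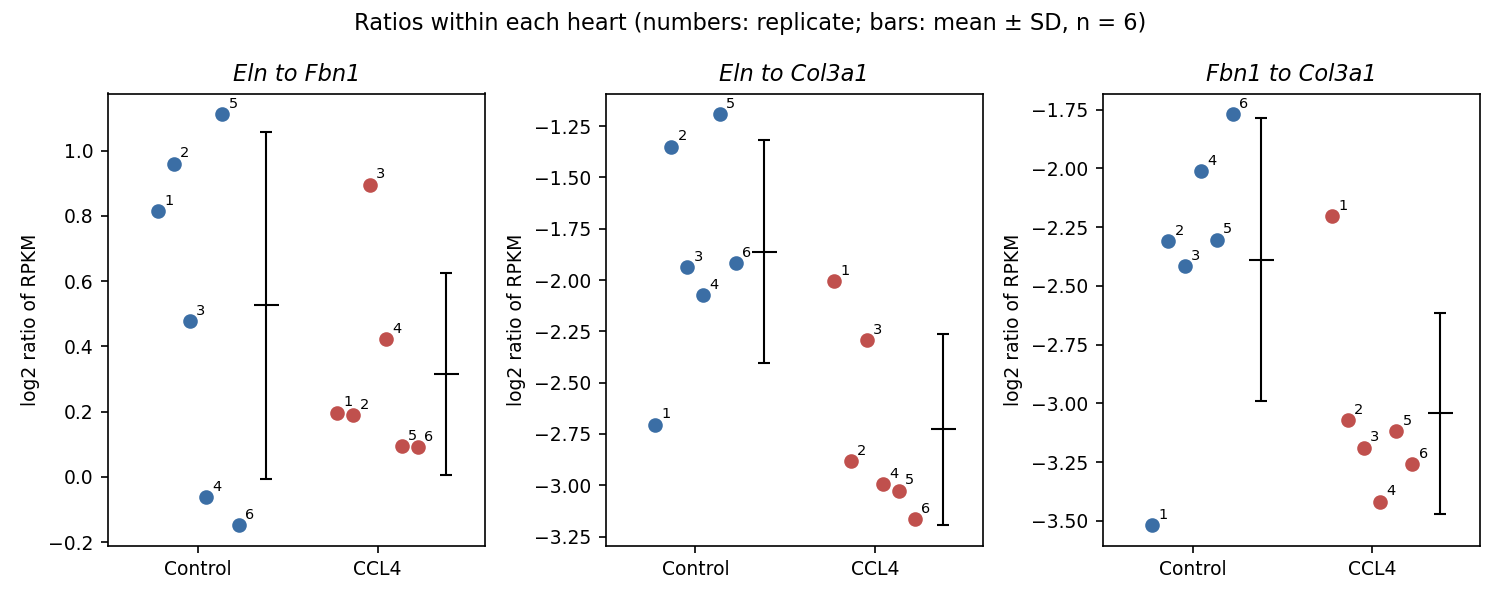
Log2 ratio of RPKM within each heart (y axis, own scale per panel) for Eln to Fbn1, Eln to Col3a1 and Fbn1 to Col3a1; digits are replicate numbers and bars the mean ± SD of 6 hearts. In the middle panel 4 of 6 CCL4 hearts lie below every Control heart, and Control replicate 1 is the lowest Control heart in the panels with Col3a1.

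Other genes of the elastic fibre pathway came from lists chosen by function. Beside each list stand the shares over all genes tested, of which 34.3% lay higher. An unadjusted p under 0.05 (limma) held for 1.6% of them on the higher and 8.58% on the lower side. Of 23 further fibre components, 18 met the expression filter, 12 lay higher and 6 lower in CCL4 hearts with a median of 0.20, and 0 passed. Ltbp2, which binds fibrillin and fibulin-5, had the smallest p of them: Control hearts had 0.668 ± 0.424 RPKM and CCL4 hearts 8.09 ± 9.92 RPKM (log2 fold change 1.63, SE 0.64, limma adjusted p = 0.402). The small proteoglycans Dcn (0.58) and Bgn (0.86) and fibronectin Fn1 (0.92) came next. All 5 tested genes of crosslinking and copper supply lay higher (median 0.59, 0 passed, 1 at an unadjusted p under 0.05). Among them the lysyl oxidases Loxl3 (1.55 ± 0.472 and 4.85 ± 4.34 RPKM), Lox (0.593 ± 0.219 and 3.66 ± 5.13 RPKM) and Loxl1 (5.66 ± 0.760 and 11.8 ± 10.5 RPKM) were highest in CCL4 replicates 3, 6 and 5, in that order, as most fibre genes were.

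Elastin-degrading enzymes and their inhibitors gave 9 of 10 tested genes higher (34.3% of all genes) with a median of 0.29, and 0 passed. The gelatinase Mmp2 (9.43 ± 4.27 and 22.6 ± 15.8 RPKM) and the cathepsin Ctsk (2.47 ± 1.23 and 5.61 ± 3.88 RPKM) had an unadjusted p under 0.05 on the higher side. The inhibitor Timp4 had one on the lower side, at 3.11 ± 0.856 and 1.81 ± 0.668 RPKM, with all 6 CCL4 hearts below the Control median (limma adjusted p = 0.323). The elastases Mmp9, Mmp12 and Elane did not meet the filter. The 9 receptor genes had a median of 0.02, with 5 higher, 4 lower and 0 passing. Itgb5, an integrin subunit, was at 8.53 ± 1.49 and 15.2 ± 9.28 RPKM, and Neu1 and Glb1, of the elastin receptor complex, had fold changes of -0.12 and 0.10. TGF-beta ligands and targets lay higher in 11 of 14 tested genes (median 0.27, 0 passed), with the matricellular gene Postn at 2.00 (SE 0.76) and the inhibitor Smad7 at -0.32 (SE 0.13).

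Marker lists of the cell types that make or surround elastic fibres did not all go the same way, where 34.3% of all genes tested lay higher. Fibroblast markers lay higher in 8 of 10 genes (median 0.47), with sums of 335.9 to 751 RPKM over Control hearts and 359.7 to 861.8 RPKM over CCL4 hearts; Lum and Pi16 had the smallest p and Scara5 (-0.29) lay lower. The fibroblast sum was highest in CCL4 replicate 3 and next in Control replicate 1, where Gsn alone was at 404 RPKM, and none of its 10 genes was at 0 in any heart. Markers of valve and tendon matrix lay higher in 3 of 5 tested genes, with Comp at 4.12 ± 2.94 and 18.9 ± 24.5 RPKM, Fmod at 4.21 ± 2.72 and 9.37 ± 8.53 RPKM and Sox9 at 0.702 ± 0.141 and 1.82 ± 1.73 RPKM. Their sum of 7 genes was 103.1 RPKM in CCL4 replicate 3, 46.0 in replicate 6 and 31.4 in replicate 5, against 6.69 to 24.6 RPKM in Control hearts, and none of the 7 was at 0. Macrophage markers lay higher in 5 of 5 genes (sums of 15.0 to 20.7 RPKM over Control hearts and 11.9 to 75.1 RPKM over CCL4 hearts), with none at 0. The part of these cell types in the fibre genes' values was not tested.

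Smooth muscle, another source of elastin in vessel walls, went the other way, as did most of the genes tested. Over all of them 34.3% lay higher, the median was -0.05, and 8.58% had an unadjusted p under 0.05 (limma) on the lower side. The counts below are to be read against these shares, which hold for the RPKM scale. With median of ratios scaling the median over all genes was -0.0004, and with mitochondrial genes left out of the scaling it was -0.0091. All 7 smooth muscle markers lay lower in CCL4 hearts (median -0.29, summed level 228.9 to 382.2 RPKM in Control and 199.1 to 284.1 RPKM in CCL4), 4 of them at an unadjusted p under 0.05, with Acta2 at -0.60 and Mylk at -0.31. All 9 endothelial markers also lay lower (median -0.37, 8 at an unadjusted p under 0.05, sums of 326.7 to 411.6 and 249.2 to 313.4 RPKM), with Esam at 18.2 ± 1.43 and 13.3 ± 1.76 RPKM. So did all 6 mesothelial markers (median -0.48, summed level 4.59 to 17.6 and 0.639 to 17.0 RPKM), of which Msln and Lrrn4 were at 0 in at least 1 heart. Heart muscle markers lay lower in 5 of 6 genes (median -0.18) and atrial markers in 3 of 4 (median -1.62). The atrial sums were 604.4 to 15033 RPKM over Control hearts and 832.6 to 11711 RPKM over CCL4 hearts. They mostly follow Nppa, the 1 atrial marker that lay higher (0.58). In CCL4 replicate 6 Nppa was at 6674.5 RPKM of a sum of 6676.4, with Myl7 at 0.811 RPKM. No gene of the marker lists passed the limma test over all genes.

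**Figure D5:**
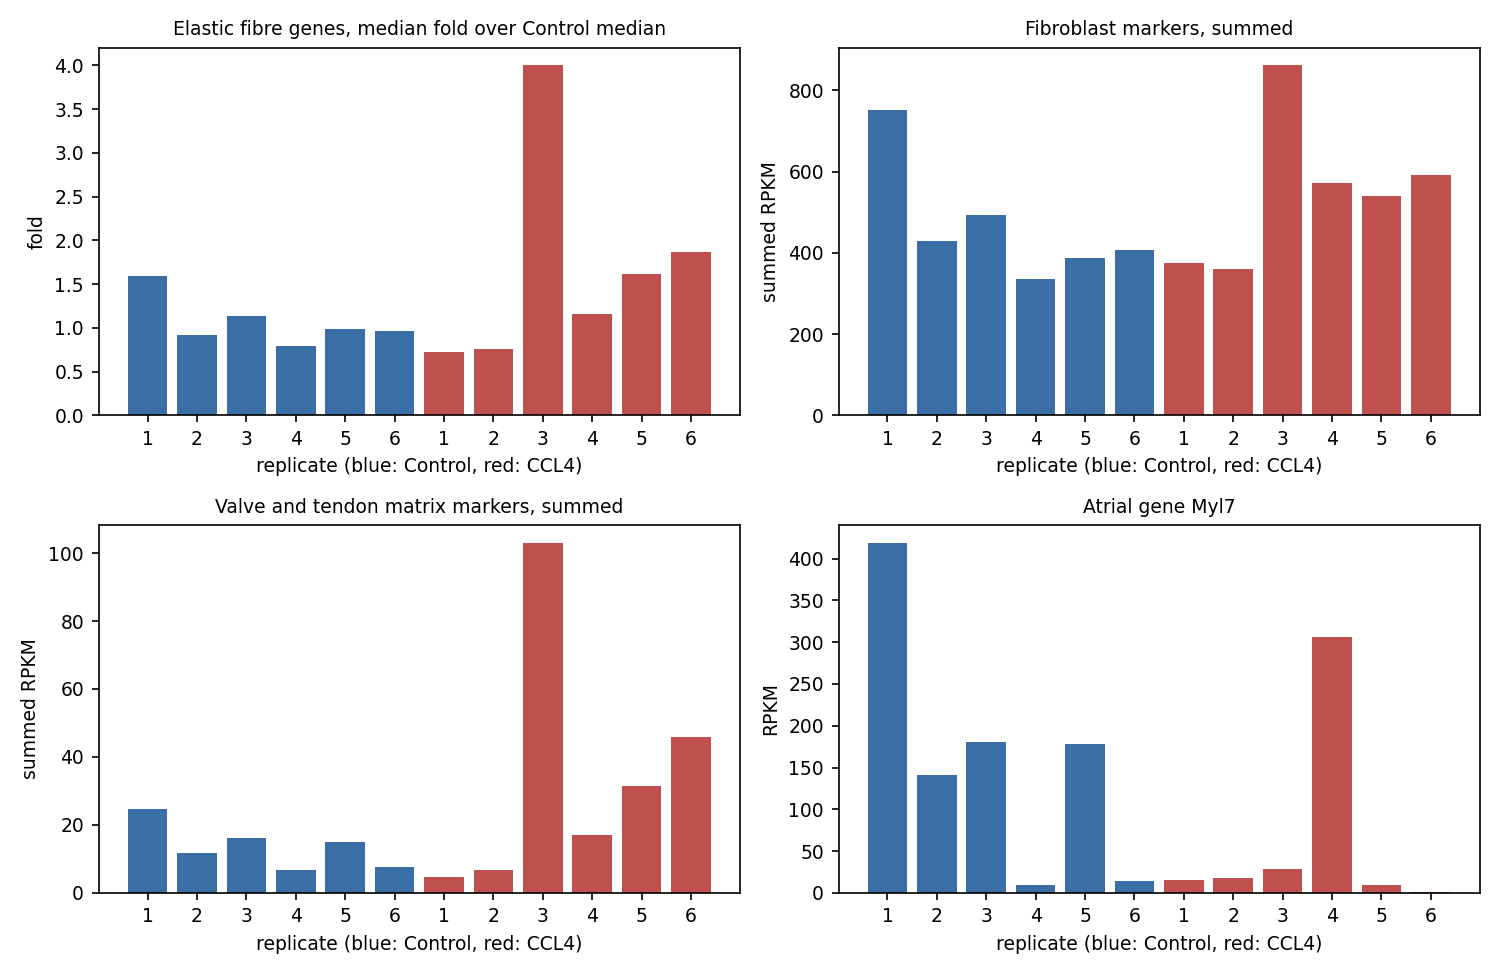
Bars for each heart of the median fold of the 10 elastic fibre genes over the Control median, the summed RPKM of fibroblast and of valve and tendon matrix markers, and the RPKM of Myl7. CCL4 replicate 3 is highest in the first 3 panels, and Control replicate 1 and CCL4 replicate 4 are highest in Myl7.

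The genes nearest to the mean pattern of the 10 were found by the mean absolute gap in SD units over the 12 hearts, among 9296 genes in no list and with a mean of at least 1 RPKM. Rcn3, a calcium-binding protein of the endoplasmic reticulum, was nearest, with a gap of 0.0837 SD where the median gene had 0.778 SD. Its means were 21.3 ± 4.28 (Control) and 31.8 ± 21.4 RPKM (CCL4), with 71.7 RPKM in CCL4 replicate 3 and 29.4 RPKM in Control replicate 1. The next were Rasa3, Ttc9, Sertad4, Sfrp1, Syt11, Scpep1, Myof, Anxa1 and Pmp22, with gaps of 0.11 to 0.125 SD. Sfrp1, a secreted Wnt antagonist, had the largest fold change of these (0.68, SE 0.40, limma adjusted p = 0.585), and Anxa1, a phospholipid-binding protein, was at 10.5 ± 3.06 and 17.2 ± 12 RPKM. Among the 10 fibre genes themselves, each set against the mean of the other 9, Emilin1 (0.163 SD) and Fbln2 (0.186 SD) lay closest and Fbn1 (0.362 SD) and Eln (0.343 SD) farthest.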

How the data were processed

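Hearts of 6 Control and 6 CCL4 mice were each sequenced as 1 library, from TRIzol RNA with a stranded mRNA kit, per the labels' protocols. The authors deposited RPKM for 31722 gene symbols. Per the submitters' processing notes, the tools include Trimmomatic 0.36, featureCounts and Subread 1.5.1, and the build is GRCm38; aligner, annotation release and strand setting are not given in the sources used here. Replicates are separate mice per the design text, and groups and numbers came from the titles.

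Genes with at least 0.5 RPKM in at least 6 libraries (14087) entered a limma fit with a mean-variance trend on log2(RPKM + 1), without covariates (limma 3.58.1, R 4.3.3), with Benjamini-Hochberg adjustment and a threshold of 0.05. Ratios and single genes were compared with a two-sided exact permutation test over every split into 6 and 6, whose smallest p is 0.00216. Multiplying RPKM by the exon length in GENCODE release M21 (95.2% of symbols matched) gave steps of 1 read; among values of at most 30 steps, 92.7% to 93.9% were within 0.05 of a whole number. Since 70.3% to 73.9% of these were even, a step can be less than a fragment and totals are relative depths. 

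The 10 members, the 13 gene lists, the ratios and the tests were chosen with earlier results of these data known. Named genes are all members, up to 3 genes of smallest p per list (4 for fibre components) and the 10 nearest genes. Some list genes and hearts were named after their values were seen. The lists share members: Dcn is in 2, and Col1a1 is in 2. Alternatives covered the pseudocount, filter, scaling, a robust fit, array weights, a block for the replicate number, atrial and Xist covariates and each library left out. Python 3.11.15, pandas 2.3.3, numpy 2.4.6, statsmodels 0.14.6 and matplotlib 3.10.9 were used.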

Additional observations from a re-analysis of the deposited data

Results flagged for a closer look

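In 26 groups of 6 hearts (10 genes and 3 ratios in each group) the gap from the most extreme heart to its nearest neighbour was taken as a share of the group's range. It was compared with the critical value of 0.625, and 7 gaps exceeded it. For normally distributed values chance exceeds it in about 1 of 20 groups. The genes were taken as RPKM, a scale that widens gaps between high values, so that rate need not hold for them. The ratios were taken as log2 values. CCL4 replicate 3 stood far above the other CCL4 hearts in Eln (gap 0.761 of the range), Fbln5 (0.728) and Mfap2 (0.651). Control replicate 1 stood far above the other Control hearts in Mfap4 (0.724) and Fbln1 (0.649), and below them in the ratio of Fbn1 to Col3a1 (0.63). CCL4 replicate 1 stood above the other CCL4 hearts in the ratio of Fbn1 to Col3a1 (0.716).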

How the results depend on the processing

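The 10 fibre genes lay higher in CCL4 hearts under each scaling, pseudocount, model and covariate tried, where Mfap2 was not tested at a mean of at least 2 RPKM; single libraries left out gave 8 to 10 higher and medians of 0.14 to 0.56. The 2 exceptions were Eln and Ltbp4 without CCL4 replicate 3: over single libraries left out Eln ran from -0.21 to 0.49 and Ltbp4 from -0.044 to 0.21. None of the 10 passed except with limma's array weights, which called 5 of them (Mfap4, Mfap5, Fbln1, Fbln2 and Emilin1, adjusted p 0.00842 to 0.0288) among 2249 genes in all, 770 higher and 1479 lower. Those weights gave CCL4 replicates 3, 2 and 1 the least influence (0.258, 0.28 and 0.419) and CCL4 replicate 5 the most (5.7). Over all genes the count was 0, but 3 with TPM scaling, 19 with the atrial covariate, 1 without both Myl7-rich libraries and 0 to 47 with single libraries left out (31 without Control replicate 1, 47 without CCL4 replicate 1, 1 without CCL4 replicate 4 and 2 without CCL4 replicate 6). At an unadjusted p under 0.05 limma held 1435 genes.

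The ratio of Eln to Col3a1 lost its call with a pseudocount of 1 (-0.83, adjusted exact p = 0.0714). It was not called with the replicate block (-0.87, exact sign-flip p = 0.0938, adjusted p = 0.234). Nor was it called in the hearts with Xist (-0.46), where Eln to Fbn1 turned to 0.13. In both of these settings a single ratio can hardly pass after adjustment (smallest possible sign-flip p 0.03125), so only the size of the difference is informative there. Single libraries left out gave -1.03 to -0.73 for Eln to Col3a1 and -0.88 to -0.53 for Fbn1 to Col3a1, which passed without both Myl7-rich libraries (-0.81, adjusted exact p = 0.0476). The causes were not tested. In expression the replicate numbers paired the hearts weakly at most. Same-numbered hearts had correlations of their deviations from the group means of -0.474 to 0.232, best with their own number in 2 of 6. Those were replicates 2 and 5, the hearts with Ddx3y in both groups. These values cannot tell whether hearts were paired by design. With the block in limma 0 genes were called, and no other call changed. Depth limits Mfap2 most, at 20 steps in its lowest library.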
